A study of Mus musculus with 24 samples.

Results

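The retinal pigment epithelium (RPE) of mice killed near the middle of the light phase, 5 h and 6 h after light onset, was compared with that of mice killed in the morning, 1 h and 3 h after light onset, by RNA sequencing. The midday group holds 5 libraries (5 h mice 1 to 3, 6 h mice 1 and 2) and the morning group 6 (1 h mice 1 to 3, 3 h mice 1 to 3). Together they are 11 of the 24 libraries of a series that sampled 3 mice at each of 8 times. 6 h mouse 3 was left out of the midday group because its read counts depended on gene length in a way that the other 11 libraries did not share, and for most of the genes named the call with it is given too. Every mouse was a wild-type 129S1/SvlmJ animal from Jackson Labs on the Rpe65 Leu450 background, a form of the visual cycle isomerase. The mice were kept on a standard diet in 12 h of light and 12 h of dark with light onset at 7 am. Age, sex, treatment other than the light cycle and the dissection are not given in the sources used here. All mice stayed in cyclic light, so a light-driven and a clock-driven difference cannot be told apart, and each mouse was killed once, so each difference is between animals. The series was designed to ask how genes of autophagy and the lysosome, and other genes of the RPE, follow the time of day.

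The RPE is a single layer of pigmented cells between the photoreceptors and the choroid, the vascular and connective tissue bed that feeds the outer retina. It regenerates the visual chromophore from vitamin A, moves ions, water, lactate and glucose between blood and retina, and engulfs the tips that photoreceptor outer segments shed, mostly shortly after light onset, which it then digests in lysosomes. RPE cells carry a circadian clock, a loop in which the activators BMAL1 (gene Arntl) and CLOCK or NPAS2 bind E-box elements and drive the Period and cryptochrome genes, whose proteins repress the activators. The same activators drive the REV-ERB receptors (Nr1d1, Nr1d2), which repress Arntl and Npas2, and the PAR bZIP factors Dbp, Tef and Hlf, which bind D-box elements in output genes.

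Library totals were close, at 15989448 to 17492470 counts in the morning libraries and 15569324 to 17121986 in the midday libraries, so depth was similar across the comparison. Expression is given as CPM, the library-size scaled count after TMM normalization. Test results are edgeR's log2 difference, midday minus morning, with its standard error (SE) and the Benjamini-Hochberg adjusted p of the quasi-likelihood test over the 17763 genes tested. Genes with an adjusted p under 0.05 are said to have risen or fallen. A level given as a ± value is the mean CPM and SD over the 6 morning or the 5 midday libraries. Xist averaged 0.247 and 0.431 CPM and the Y-linked gene Ddx3y 98.2 ± 5.92 and 116 ± 4.44 CPM, so no group mixed the sexes. Of 5 sex-linked genes tested 3 rose at midday (Kdm5d, Eif2s3y and Ddx3y) and none fell, against 4.98% and 5.85% of all tested genes. Each gene's deviation from the mean correlated with gene length at a Spearman rho between -0.216 and 0.22 in the 11 libraries, against -0.424 in 6 h mouse 3, in which ribosomal protein genes also took 2.65% of counts against 1.28% to 1.73%. RPE genes were high in every library: the 19 RPE identity genes summed to 14600 to 17500 CPM in the morning and 16800 to 18900 CPM at midday. Genes of neighbouring cells were present too, and 21 rod markers summed to 2080 to 3360 CPM in the morning and 2190 to 4160 at midday. The sums of 15 endothelial markers of the choroid were 889 to 1330 and 631 to 1030 CPM, and those of 14 fibroblast and mural cell markers 2400 to 2900 and 1930 to 2420 CPM. None of these markers was at 0 in all 11 libraries. The median log2 CPM of the endothelial list was lower at midday, 5.19 ± 0.293 (SD, n = 5) against 5.88 ± 0.231 (n = 6), a difference of -0.693 (two-sided exact permutation test over 462 splits, p = 0.00433, adjusted over 10 marker lists p = 0.0433). The groups overlapped, at 4.971 to 5.661 against 5.576 to 6.149. The fibroblast and mural list differed by -0.244 (exact permutation p = 0.013, adjusted p = 0.0649), while the rod list did not differ beyond the spread, at 0.0015 (exact permutation p = 1). In bulk RNA, fewer cells of a type and less RNA per cell cannot be told apart.

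The genes that rose at midday included clock repressors, visual cycle and transport genes, ETS factors, and interferon response genes whose higher levels lay at 5 h. Those that fell included the clock activators Arntl and Npas2 and members of the immediate early, retinoic acid, Wnt, collagen and choroidal vessel lists. Of the 17763 genes tested, 1924 (10.8%) passed the threshold: 884 rose (4.98%) and 1040 fell (5.85%). Most differences were small, with a median of 0.28 (1.22-fold) among genes that rose and -0.41 (1.33-fold) among those that fell, and the median over all tested genes was -0.011. Only 23 of the genes that rose and 56 of those that fell did so by more than 2-fold, and the genes that rose held more reads, at a median of 73.1 CPM against 29.3 CPM. All 5 midday libraries exceeded all 6 morning libraries for 560 genes (3.15% of those tested) and fell below them for 449 (2.53%), together 5.68%. Of the genes that also passed the threshold, 464 higher (2.61%) and 376 lower (2.12%) had no overlap. The 15 largest rises and 15 largest falls chosen for naming were picked among genes with no overlap. For these, Etv4, Sema3c, Kcnj13, Myh11 and Eln among them, the lack of overlap follows from that rule.

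The count of genes depended on which libraries entered the fit. With 6 h mouse 3 as a 12th library, 365 genes passed, 156 higher and 209 lower, of which 364 were among the 1924, and with all 24 libraries 52 passed. Without 6 h mouse 1 the count was 819, and without 1 h mouse 1 it was 1217. Without 1 h mouse 2, 3 h mouse 2, 5 h mouse 2 or 6 h mouse 2 it was 1294 to 1411. With 1 of the other libraries left out it was 1461 to 2575. With the endothelial marker level as a covariate, a term chosen after the data were seen, no gene passed in edgeR and 1610 had an unadjusted p under 0.05. In that fit 877 of the 884 higher and 979 of the 1040 lower genes kept their sign, with medians of 0.263 and -0.268. With the fibroblast and mural marker level as a covariate 6 genes passed, all higher, with 2346 at an unadjusted p under 0.05 and medians of 0.297 and -0.385 over the same 884 and 1040 genes. Both marker levels are tied to the groups compared, so a difference in cell make-up and a difference in time of day cannot be told apart by these fits. The plot of gene lists shows every tested member.

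**Figure D1:**
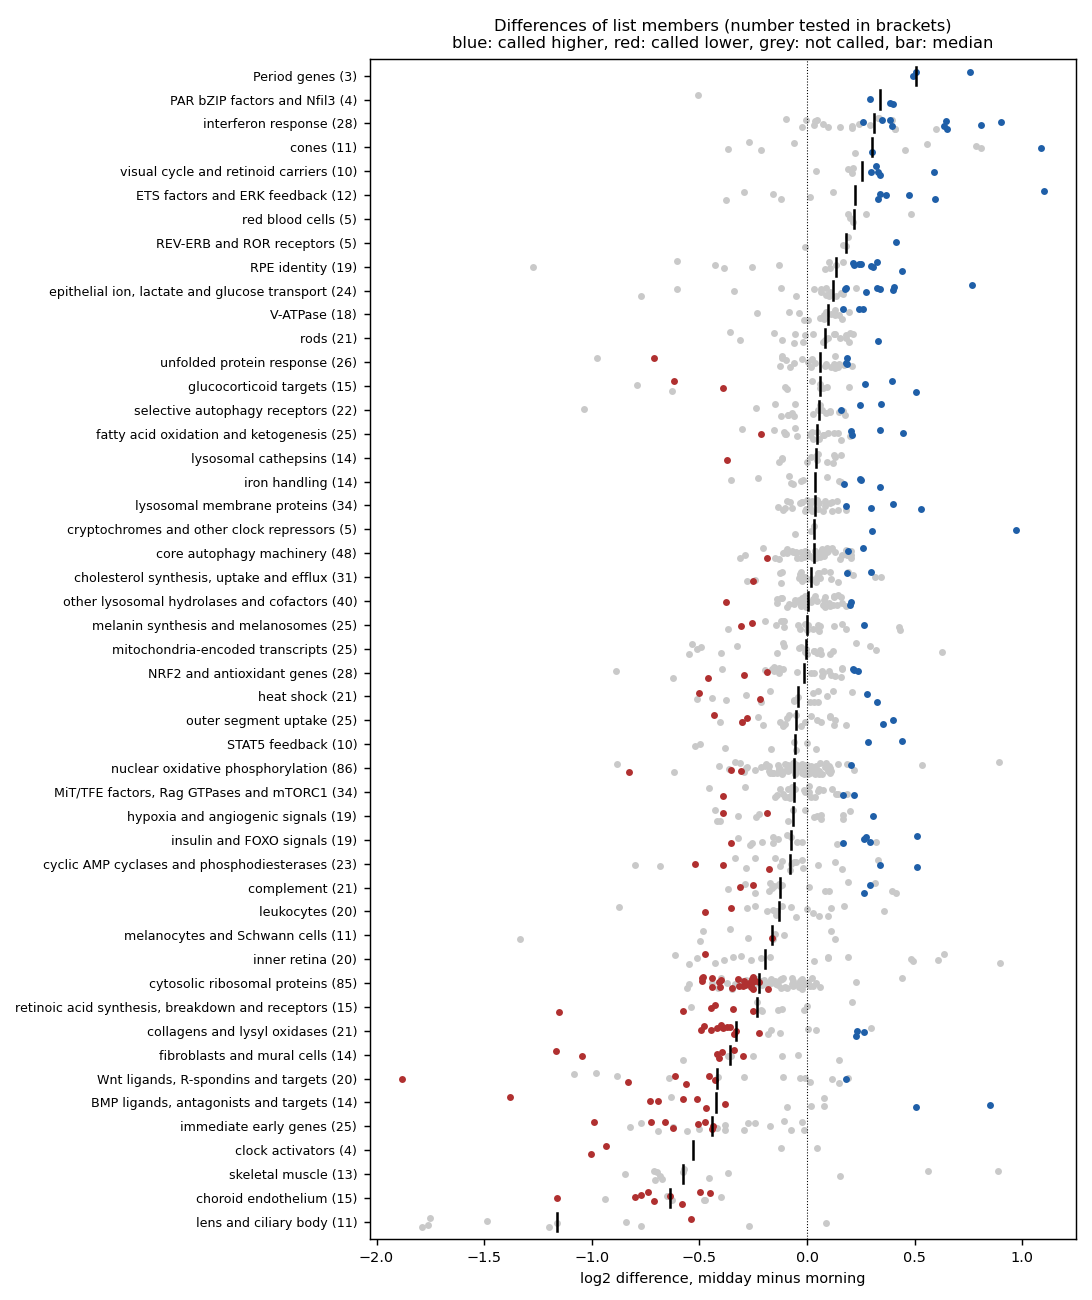
Log2 difference, midday minus morning, of each tested member of the gene lists; blue points rose, red points fell, grey points did not pass an adjusted p of 0.05, the bar marks the list's median, and the number of tested members is in brackets. Visual cycle members lie above 0, and immediate early genes, choroid endothelial markers and most collagens lie below 0.

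Between morning and midday 2 clock activators fell and 5 of 8 Period, cryptochrome and other repressor genes rose. Of 21 clock genes, 9 rose (all 3 Period genes, Ciart, Cry2, Nr1d2 and the 3 PAR bZIP factors), 2 fell (Arntl and Npas2) and 10 did not pass. The shares of all tested genes were 4.98% that rose and 5.85% that fell. Arntl (ENSMUSG00000055116, chromosome 7, 113207465 to 113314126 in GRCm38, GENCODE annotation) encodes BMAL1, the partner without which the loop stops. Arntl measured 17.4 to 22.6 CPM (median 20.2) in the 6 morning libraries, 11.8, 12.2 and 10.5 at 5 h and 10.8 and 8.61 at 6 h. Every midday library was below every morning library, and the log2 difference was -0.93 ± 0.10 SE, adjusted p = 0.000176, or 1.91-fold lower. Npas2 (ENSMUSG00000026077, chromosome 1, 39193731 to 39363236) is an alternative partner of BMAL1. It measured 7.83 to 11.1 CPM (median 9.13) in the morning and 6.18, 4.82 and 2.95 at 5 h and 4.34 and 4.96 at 6 h. Again the groups did not overlap (-1.0 ± 0.17 SE, adjusted p = 0.00239). Clock itself gave 78.6 ± 6.39 CPM in the morning and 72.3 ± 4.26 at midday (SD, n = 6 and 5) and did not pass (-0.12 ± 0.065 SE, adjusted p = 0.25). Arntl2, a paralog of Arntl, was at 0.718 ± 0.253 CPM and 0.733 ± 0.369 (0.044 ± 0.40 SE, adjusted p = 0.96), and its sign turned with 6 h mouse 3 added (-0.17).

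The Period genes encode the repressors whose rise marks the later light phase in the clock of many tissues. Per2 measured 45.4 to 53.8 CPM (median 50.7) in the 6 morning libraries, 76.1, 86.1 and 85.7 at 5 h and 87.9 and 86.4 at 6 h. Per2 (ENSMUSG00000055866, chromosome 1, 91415982 to 91459324) was higher in all midday libraries than in any morning library, at 1.69-fold (0.76 ± 0.056 SE, adjusted p = 1.36e-05); 5 h mouse 1 was the lowest midday library. Per3 gave 70.8 ± 7.59 CPM in the morning and 99.6 ± 5.43 at midday (0.49 ± 0.072 SE, adjusted p = 0.00122). Per1 was not level within the morning: 116, 103 and 120.3 CPM in the 1 h mice, 43.4, 46.2 and 55 in the 3 h mice, 84.4, 103 and 112 in the 5 h mice and 97.4 and 123 in the 6 h mice. Its pooled difference (0.51 ± 0.091 SE, adjusted p = 0.00518) therefore sets midday against 1 h libraries at a midday-like level and 3 h libraries far below it, and without the 3 h libraries the difference was -0.11 (adjusted p = 0.599). Between 3 h and 5 h alone Per1 rose by 1.05 ± 0.12 (SE, adjusted p = 0.00248), a contrast in which 348 of the 17763 genes passed (1.96%; 165 higher, 0.929%, and 183 lower, 1.03%).

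Ciart (ENSMUSG00000038550, chromosome 3, 95878503 to 95882251), which encodes CHRONO, a repressor of the BMAL1 and CLOCK pair, had the largest rise of the 21 clock genes. Ciart measured 8.11 to 24 CPM (median 20.8) in the 6 morning libraries, 31.1, 32.5 and 34.1 at 5 h and 38.5 and 35.6 at 6 h. The fold change was 1.96 (0.97 ± 0.17 SE, adjusted p = 0.00771), and the groups did not overlap. Of the other repressors, Cry2 rose from 78.6 ± 4.37 CPM to 96.6 ± 2.89 (0.30 ± 0.049 SE, adjusted p = 0.00202). Cry1 stood at 19.6 ± 1.66 CPM and 19.8 ± 1.59 (0.021 ± 0.085 SE, adjusted p = 0.911). Bhlhe40 stood at 186 ± 20.7 CPM and 177 ± 12.4 (-0.056 ± 0.067 SE, adjusted p = 0.652), and Bhlhe41 at 203 ± 19 CPM and 206 ± 7 (0.031 ± 0.043 SE, adjusted p = 0.696). Nr1d2, encoding REV-ERB beta, rose from 140.5 ± 14.1 CPM to 185 ± 11.8 (0.41 ± 0.051 SE, adjusted p = 0.000374). Nr1d1, encoding REV-ERB alpha, was 153, 114 and 146 CPM in the 1 h mice, 179, 203 and 196 in the 3 h mice, 175, 182 and 192 in the 5 h mice and 213 and 164 in the 6 h mice. Its 3 h level was already near that of midday, and the pooled difference did not pass (0.19 ± 0.084 SE, adjusted p = 0.175). Rora and Rorb, receptors that activate the elements that REV-ERB represses, did not pass, at 0.17 ± 0.059 and 0.18 ± 0.07. Without 3 h mouse 3 both passed (adjusted p = 0.0078 and 0.0229).

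The PAR bZIP genes, the main output factors of the loop, rose together. Dbp measured 191 to 306 CPM (median 259) in the 6 morning libraries, 369, 352 and 308 at 5 h and 328 and 345 at 6 h (0.39 ± 0.079 SE, adjusted p = 0.00754). Dbp stood at 0.22 without the 1 h libraries (adjusted p = 0.108). Tef followed, from 343 ± 19.5 CPM to 449 ± 24.5 (0.40 ± 0.047 SE, adjusted p = 0.000292), and Hlf from 98.7 ± 4.94 CPM to 120.0 ± 7.78 (0.29 ± 0.048 SE, adjusted p = 0.00209). Nfil3, a repressor at the same D-box elements, stood at 10.4 ± 2.29 CPM and 7.21 ± 1.66 and did not pass (-0.51 ± 0.18 SE, adjusted p = 0.0849). Nfil3 passed without 3 h mouse 2 (adjusted p = 0.0275) or without 6 h mouse 2 (0.0259). Of these genes Ciart, Cry2, Dbp, Hlf, Nr1d2, Per2, Per3 and Tef had no overlap between the groups and Per1 did. Over all tested genes, 3.15% had every midday library above every morning library and 2.53% had every one below. With 6 h mouse 3 added, 7 of the 21 clock genes rose and 2 fell (Cry2 and Hlf did not pass), and with all 24 libraries 1 rose and 2 fell. As covariates, the endothelial marker level left none past the threshold in edgeR, and the fibroblast and mural marker level left 1, Per2 (adjusted p = 0.0263). Exons of Dbp and Nr1d1 overlap those of Sphk2 and Thra over 18% and 8.55% of their bases. The kit does not mark strand, so reads there cannot be assigned to one gene.

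The promoters of the clock genes that rose were read for the elements named above, in the 250 bases before each gene's start in RefSeq (GRCm38.p6; 18 of the 21 clock genes had an entry). The E-box CACGTG, whose letters read the same on both strands, was found in 3 of the 8 clock genes that rose and had an entry (37.5%), namely Ciart, Per1 and Tef. Over all 18 clock genes with an entry the E-box was in 5 (27.8%), among them Cry1 and Bhlhe41, which did not pass. It was in 9.42% of the 12453 tested genes with an entry and 6.86% of all 27025 promoters of that length. The D-box TTATGNAA, searched on both strands, was in Per1 and Per3, against 2.45% of tested genes. Neither Arntl nor Npas2 held either motif in this window. Matches are letters in a sequence, not measured binding. The promoters of the 3 clock genes that rose and held an E-box are shown for comparison, Per1 with the mixed morning given above. Capitals mark the E-box. Each runs 5′ to 3′ on the gene's strand, at chr3:95882229-95882478 (- strand), chr11:69098699-69098948 (+ strand) and chr15:81802423-81802672 (+ strand). Ciart carries 3 matches while Per1 and Tef carry 1 each.
Ciart: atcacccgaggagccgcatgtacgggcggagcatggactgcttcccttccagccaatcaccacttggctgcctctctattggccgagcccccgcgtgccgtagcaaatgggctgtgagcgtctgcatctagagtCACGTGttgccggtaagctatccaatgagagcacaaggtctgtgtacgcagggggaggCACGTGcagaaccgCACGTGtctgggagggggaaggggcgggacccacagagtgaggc
Per1: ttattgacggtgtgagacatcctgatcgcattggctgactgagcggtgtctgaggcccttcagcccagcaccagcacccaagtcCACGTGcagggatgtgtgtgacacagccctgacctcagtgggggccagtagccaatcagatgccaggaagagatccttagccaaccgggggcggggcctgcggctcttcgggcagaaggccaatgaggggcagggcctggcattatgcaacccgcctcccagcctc
Tef: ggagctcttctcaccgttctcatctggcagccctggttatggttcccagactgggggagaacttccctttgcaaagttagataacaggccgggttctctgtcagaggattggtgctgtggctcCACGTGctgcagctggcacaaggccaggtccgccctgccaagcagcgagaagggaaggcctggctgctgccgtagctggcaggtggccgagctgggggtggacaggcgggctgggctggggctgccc

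**Figure D2:**
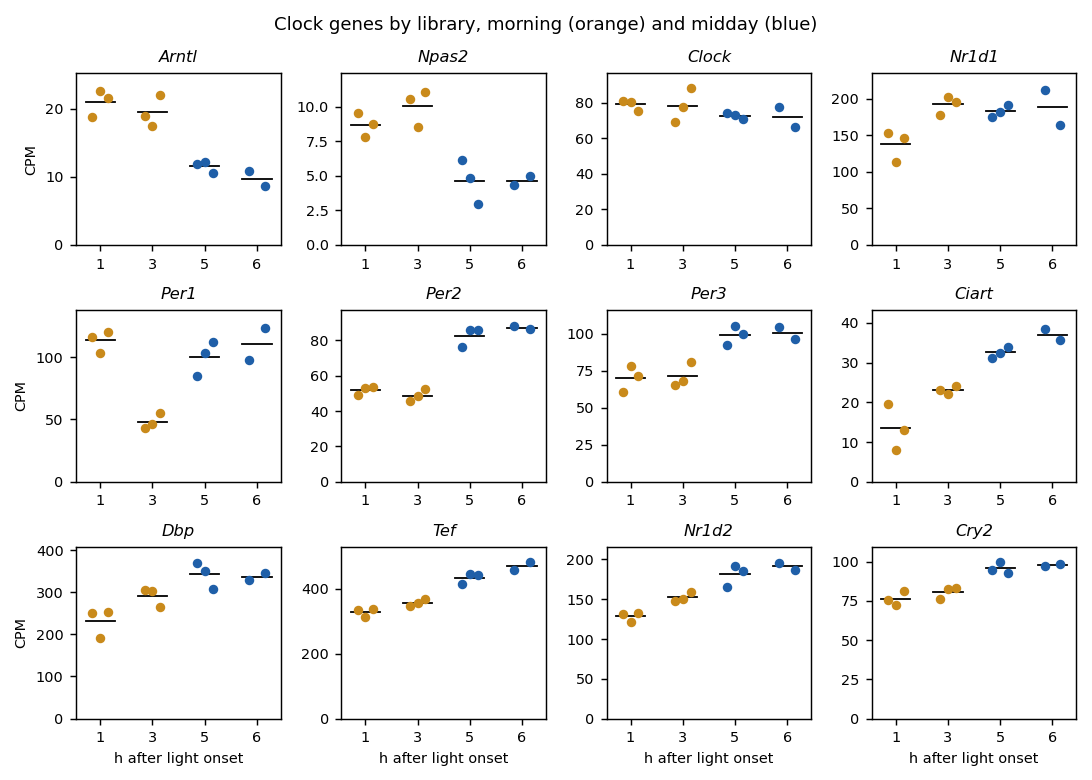
Expression of 12 clock genes in CPM in each library at 1, 3, 5 and 6 h after light onset; points are single mice and bars are time means (n = 3, and n = 2 at 6 h). Arntl and Npas2 lie lower at 5 h and 6 h, Ciart and Per2 higher, and Per1 is lowest at 3 h.

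ETS factors and feedback inhibitors of the ERK kinase pathway were among the genes that rose. Of 12 ETS factors and ERK feedback genes, 6 rose and none fell, against 4.98% and 5.85% of all tested genes. The list's median difference was 0.22 against -0.011 for all genes. The 6 are Etv4, Etv5, Dusp6, Spry1, Spry2 and Spry4. Etv4 (ENSMUSG00000017724, chromosome 11, 101769742 to 101785371), an ETS transcription factor induced by growth factor signalling, had the largest rise. Etv4 measured 3.79 to 6.51 CPM (median 4.63) in the 6 morning libraries, 12.3, 9.71 and 9.04 at 5 h and 8.56 and 11.6 at 6 h. Its midday libraries all stood above its morning libraries, at 2.15-fold (1.10 ± 0.15 SE, adjusted p = 0.00054). Dusp6, a phosphatase that switches ERK off, rose from 317 ± 28.6 CPM to 479 ± 38.3 (0.60 ± 0.067 SE, adjusted p = 0.000258). Spry2, a feedback inhibitor of receptor tyrosine kinases, rose from 49 ± 3.11 CPM to 67.7 ± 3.8 (0.47 ± 0.061 SE, adjusted p = 0.000484). Etv5, a relative of Etv4, rose from 109 ± 4.44 CPM to 141 ± 8.99 (0.37 ± 0.053 SE, adjusted p = 0.00118). Etv4, Dusp6 and Spry2 remained past the threshold once 6 h mouse 3 was added as a 12th library, and Etv5 did not.

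In the bone morphogenetic protein (BMP) pathway the ligand and a secreted antagonist rose while several target genes fell. Of 14 BMP genes tested, 2 rose (Bmp4 and Nog), against 4.98% of all tested genes. A further 7 fell (among them Bambi, Smad6, Smad7, Id1, Id2 and Id3), against 5.85%, and the list's median was -0.42. The number that fell was 2 without 6 h mouse 1. Bmp4 measured 230.0 to 368 CPM (median 281) in the 6 morning libraries, 436, 397 and 392 at 5 h and 396 and 400.1 at 6 h. Bmp4 rose by 1.42-fold (0.50 ± 0.064 SE, adjusted p = 0.00041), with groups that did not overlap. Nog, which encodes the BMP-binding antagonist noggin, went from 169 ± 21.9 CPM to 299 ± 76.4 (0.85 ± 0.14 SE, adjusted p = 0.00831). Id3, an inhibitor of basic helix-loop-helix factors and a standard BMP target, measured 129.9 to 187 CPM (median 164) in the morning and 80.8, 107 and 101 at 5 h and 73.4 and 116 at 6 h. Its midday libraries were all below its morning libraries (-0.73 ± 0.13 SE, adjusted p = 0.00945). Id1 fell from 40.6 ± 8.87 CPM to 26 ± 4.82 (-0.69 ± 0.14 SE, adjusted p = 0.0128), and did not pass without 6 h mouse 1 (adjusted p = 0.0808). Id1 and Id3 are also made by vessel cells, whose markers were lower at midday. With the endothelial marker level as a covariate Id1 stood at -0.016 (adjusted p = 0.993) and Id3 at -0.52 (adjusted p = 0.661). No gene passed in that fit, so it does not single out Id1 and Id3, and the cause of their falls was not tested. Bmp4 and Nog remained past the threshold once 6 h mouse 3 was added as a 12th library, and Id3 and Id1 did not.

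Some Wnt and retinoic acid genes fell. Among 20 Wnt ligands, R-spondins and targets 1 rose (Lgr4), against 4.98% of all tested genes. Of the 20, 6 fell (Wnt10a, Wnt6, Wnt5a, Lef1, Rspo2 and Dkk3), against 5.85%, and the list's median was -0.42. The number that fell was 0 without 6 h mouse 1 and 3 without 1 h mouse 2, 3 h mouse 1 or 5 h mouse 3. Rspo2, a secreted amplifier of Wnt signals, went from 11.7 ± 1.88 CPM to 7.77 ± 1.83 (-0.56 ± 0.13 SE, adjusted p = 0.0126) and did not pass without 6 h mouse 1 (adjusted p = 0.0841). Of 15 retinoic acid genes, 6 fell and none rose (median -0.23), against 5.85% and 4.98% of all tested genes. Cyp26a1 (ENSMUSG00000024987, chromosome 19, 37697808 to 37701528) encodes the enzyme that breaks retinoic acid down and is itself induced by it. Cyp26a1 measured 10.2 to 19 CPM (median 15.8) in the 6 morning libraries, 6.18, 12.2 and 11.2 at 5 h and 5.56 and 4.02 at 6 h. The midday libraries lay lower, with overlap, at 2.22-fold (-1.15 ± 0.20 SE, adjusted p = 0.00505). The receptor gene Rarg fell from 54.5 ± 6.5 CPM to 40.5 ± 3.49 (-0.44 ± 0.077 SE, adjusted p = 0.00269). Rara fell from 29.6 ± 4.51 CPM to 22.2 ± 1.54 (-0.43 ± 0.10 SE, adjusted p = 0.0107), and Rxra also fell. Of the synthetic enzymes, Aldh1a1 fell from 37.4 ± 8.43 CPM to 24.9 ± 1.9 (-0.58 ± 0.12 SE, adjusted p = 0.0125). It did not pass without 6 h mouse 1 (adjusted p = 0.0781). Aldh1a2 also fell. Rspo2, Rarg and Rara remained past the threshold once 6 h mouse 3 was added as a 12th library, and Cyp26a1 and Aldh1a1 did not. Cyp26a1 stood at -0.63 without the 6 h libraries (adjusted p = 0.181), and Rspo2 stood at -0.31 without the 5 h libraries (adjusted p = 0.35). The retinoic acid list's summed level was 2329 to 2885 CPM in the morning and 2769 to 3153 at midday. Choroidal marker levels were lower in the same libraries. As a covariate the endothelial level left Rara at -0.082 (adjusted p = 0.953), Rarg at -0.32 (adjusted p = 0.569) and Cyp26a1 at -0.99 (adjusted p = 0.525). The fibroblast and mural level left Rspo2 at -0.29 (adjusted p = 0.556) and Rara at -0.25 (adjusted p = 0.499). As no gene passed with the endothelial level, that fit does not single out these genes. The cause of their falls was not tested.

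Genes of the visual cycle, the enzyme chain that rebuilds 11-cis retinal in the RPE, were among those that rose. All 10 genes tested had a positive difference and 5 rose (Lrat, Rdh10, Rgr, Ttr and Rpe65), against 4.98% of all tested genes. The list's median was 0.26, and without 1 h mouse 3, 8 of its members rose. Lrat (ENSMUSG00000028003, chromosome 3, 82892579 to 82903973) joins retinol to a fatty acid, the first RPE step of the cycle, and had the largest rise. Lrat measured 1228 to 1692 CPM (median 1378) in the 6 morning libraries, 2226, 2202 and 1855 at 5 h and 2204 and 2037 at 6 h. The groups did not overlap, and the rise was 1.5-fold (0.59 ± 0.069 SE, adjusted p = 0.000292). Rpe65 (ENSMUSG00000028174, chromosome 3, 159599175 to 159625321), the isomerase whose Leu450 form these mice carry, measured 3563 to 4921 CPM (median 4042) in the morning and 4578, 4952 and 4533 at 5 h and 5255 and 5388 at 6 h. Its rise was 1.23-fold (0.30 ± 0.059 SE, adjusted p = 0.00601), with groups that overlapped. Rpe65 stood at 0.17 without the 3 h libraries (adjusted p = 0.187). Rdh10, a retinol dehydrogenase, rose by 0.34 ± 0.059 (adjusted p = 0.00272), Rgr, an opsin of the RPE, by 0.33 ± 0.062 (0.00439) and Ttr, a retinol and thyroxine carrier, by 0.32 ± 0.068 (0.00818). Lrat, Rdh10 and Rgr remained past the threshold once 6 h mouse 3 was added as a 12th library, and Rpe65 and Ttr did not. With the endothelial marker level as a covariate Lrat stood at 0.374, Rpe65 at 0.274, Rdh10 at 0.377, Rgr at 0.376 and Ttr at 0.384. None of them passed in that fit, and whether cell make-up caused the rises was not tested.

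Some genes of epithelial transport also rose. Of 24 ion, lactate and glucose transport genes 8 rose and none fell (median 0.12), against 4.98% and 5.85% of all tested genes. Of 19 RPE identity genes 8 rose and none fell (median 0.14), against the same shares. Rpe65 is on the identity and visual cycle lists, and Slc16a1 on the transport and identity lists. The number that rose was 4 without 1 h mouse 1, 1 h mouse 2, 5 h mouse 2 or 6 h mouse 1 and 5 without 3 h mouse 1 or 5 h mouse 1 for the identity list. Kcnj13 (ENSMUSG00000079436, chromosome 1, 87386363 to 87394729) encodes Kir7.1, the potassium channel of the apical RPE membrane. Kcnj13 measured 158 to 237 CPM (median 185) in the 6 morning libraries, 376, 339 and 320.1 at 5 h and 311 and 293 at 6 h. All midday libraries were above all morning libraries, at 1.7-fold (0.77 ± 0.078 SE, adjusted p = 0.000176), whereas 6 h mouse 3 read 246 CPM. Exons of Kcnj13 lie over those of Gigyf2 for 49.1% of their bases, so part of these reads cannot be assigned without strand. The cation channel Trpm3 rose from 663 ± 71.2 CPM to 871 ± 74 (0.40 ± 0.072 SE, adjusted p = 0.00322). The amino acid carrier Slc7a5 rose from 310.3 ± 52 CPM to 401 ± 38.4 (0.40 ± 0.064 SE, adjusted p = 0.00201); its morning was mixed, at 326, 339 and 393 CPM in the 1 h mice and 271, 257 and 275 in the 3 h mice. Slc7a5 stood at 0.20 without the 3 h libraries (adjusted p = 0.146). Car12, a carbonic anhydrase, rose from 1302 ± 105 CPM to 1640.1 ± 61.8 (0.34 ± 0.06 SE, adjusted p = 0.0032). Slc16a1, the lactate carrier MCT1, rose by 0.33 ± 0.064 (adjusted p = 0.00578). Vegfa, the growth factor by which the RPE maintains the choroid's capillaries, rose by 0.31 ± 0.059 (adjusted p = 0.00489), and Crim1, a transmembrane protein that binds BMPs, by 0.44 ± 0.063 (0.000947). Slco1c1, a thyroid hormone carrier, rose (0.88 ± 0.17 SE, adjusted p = 0.0176), but not without 6 h mouse 1 (adjusted p = 0.0599) or 6 h mouse 2 (0.0612). Slco1c1 stood at 0.47 without the 3 h libraries (adjusted p = 0.294). Kcnj13, Slc7a5, Slc16a1 and Slco1c1 remained past the threshold once 6 h mouse 3 was added as a 12th library, and Trpm3, Car12, Vegfa and Crim1 did not. With the endothelial marker level as a covariate Kcnj13 stood at 0.603, Trpm3 at 0.278, Slc7a5 at 0.341 and Car12 at 0.421. In the same fit Slc16a1 stood at 0.358, Vegfa at 0.235, Crim1 at 0.433 and Slco1c1 at 0.459, and none of these genes passed. Whether cell make-up caused the rises was not tested.

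Among the largest rises by the naming rule stood Sema3c (ENSMUSG00000028780, chromosome 5, 17574281 to 17730268), a secreted guidance cue of the semaphorin family. Sema3c measured 299 to 336 CPM (median 313) in the 6 morning libraries, 628, 523 and 457 at 5 h and 537 and 586 at 6 h. The midday libraries were all higher, at 1.74-fold (0.80 ± 0.072 SE, adjusted p = 0.000109), and 6 h mouse 3 read 364 CPM. Sema3c and Kcnj13 were the other genes named here that passed with the fibroblast and mural marker level as a covariate (adjusted p = 0.0232 and 0.0263). Gabrr2, a subunit of ionotropic GABA receptors, rose from 5.51 ± 0.952 CPM to 9.22 ± 1.19 (0.76 ± 0.13 SE, adjusted p = 0.0026). Pde6c, the catalytic cone phosphodiesterase, rose from 4.33 ± 1.78 CPM to 8.86 ± 1.18 (1.09 ± 0.18 SE, adjusted p = 0.00215). Of 11 cone markers 2 rose, and of 21 rod markers 1, Slc24a1 (0.33 ± 0.069, adjusted p = 0.00751), against 4.98% of all tested genes. Pde6c stood at 0.71 without the 1 h libraries (adjusted p = 0.0741). Sema3c, Gabrr2 and Pde6c remained past the threshold once 6 h mouse 3 was added as a 12th library, and Slc24a1 did not. The cone list's median log2 CPM differed by -0.0762 (exact permutation p = 0.805).

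The genes of outer segment uptake showed no common direction: of 25, 2 rose and 3 fell (1 without 6 h mouse 1), with a median of -0.053. The shares of all tested genes were 4.98% that rose and 5.85% that fell. Both uptake genes that rose encode receptors, the kinase Mertk and the integrin subunit Itgav. Of the uptake genes that fell, Gas6 encodes a bridging ligand of Mertk. Mertk measured 164 to 210.0 CPM (median 197) in the 6 morning libraries, 256, 253 and 239.7 at 5 h and 268 and 249 at 6 h. Mertk was 1.32-fold higher at midday (0.40 ± 0.061 SE, adjusted p = 0.00153), with groups that did not overlap. Itgav, the partner of beta 5 integrin in binding outer segments, rose from 705 ± 54.3 CPM to 899 ± 43.7 (0.35 ± 0.061 SE, adjusted p = 0.00288). Gas6 fell from 287 ± 26.8 CPM to 212 ± 14.3 (-0.43 ± 0.07 SE, adjusted p = 0.00202). Anxa2, an annexin of early phagosomes, fell by 0.30 on the log2 scale (SE 0.065, adjusted p = 0.00889), but not past the threshold without 6 h mouse 1 (adjusted p = 0.0595). Gas6 and Anxa2 are also made by vessel and connective tissue cells. With the endothelial marker level as a covariate Gas6 stood at -0.47 (adjusted p = 0.331) and Anxa2 at -0.24 (adjusted p = 0.647). No gene passed in that fit, so it does not single out Gas6 and Anxa2, and the cause of their falls was not tested. Gas6 remained past the threshold once 6 h mouse 3 was added as a 12th library, and Mertk, Itgav and Anxa2 did not.

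**Figure D3:**
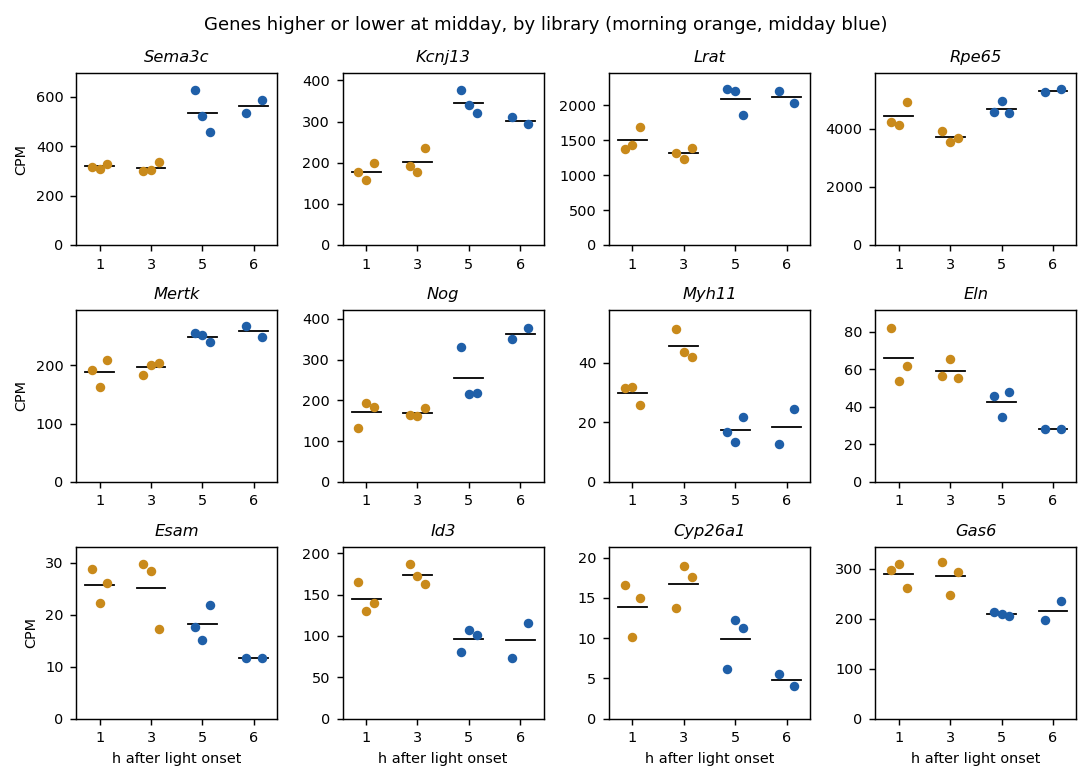
Expression in CPM of 12 genes in each library at 1, 3, 5 and 6 h after light onset; points are single mice and bars are time means (n = 3, and n = 2 at 6 h). Sema3c, Kcnj13 and Lrat lie higher at 5 h and 6 h, and Myh11, Eln, Id3 and Cyp26a1 lie lower.

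Autophagy and lysosomal genes, the subject of the series, were read by list, against 4.98% of all tested genes that rose and 5.85% that fell. Of 48 genes of the core autophagy machinery, 2 rose (Atg12 and Atg2b) and 1 fell (Plekhm1), with a median of 0.031. Among 22 selective autophagy receptors 3 rose and none fell. Rtn3, a receptor for the endoplasmic reticulum, rose from 1169 ± 73.4 CPM to 1472 ± 68.4 (0.34 ± 0.054 SE, adjusted p = 0.00172). Tax1bp1, a receptor for ubiquitin-tagged cargo, rose from 281 ± 15.7 CPM to 331 ± 18.9 (0.25 ± 0.048 SE, adjusted p = 0.00568). Optn, the receptor optineurin, measured 98.5 to 118 CPM (median 112) in the morning and 105, 116 and 107 at 5 h and 117 and 115 at 6 h. The groups overlapped and it did not pass (0.029 ± 0.049 SE, adjusted p = 0.762). Sqstm1, the receptor p62, stood at 500.1 ± 31.4 CPM and 450.1 ± 12.7 (-0.15 ± 0.051 SE, adjusted p = 0.0748). It passed without 3 h mouse 3 (adjusted p = 0.0334) and in DESeq2 (adjusted p = 0.0168). Tfeb, a transcription factor that drives lysosomal genes, was at 33.8 ± 4.51 CPM and 30.6 ± 2.78 (-0.15 ± 0.10 SE, adjusted p = 0.363).

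Lysosomal genes were read by class, as hydrolases, membrane proteins and subunits of the proton pump. The shares of all tested genes were again 4.98% that rose and 5.85% that fell. None of 14 cathepsins rose and 1 fell, Ctsh, from 47.1 ± 6.16 CPM to 37.1 ± 3.58 (-0.37 ± 0.091 SE, adjusted p = 0.0175), a call lost without 6 h mouse 1 (adjusted p = 0.0967). Of 40 other hydrolases and cofactors 2 rose (Ids and Tpp1) and 1 fell, the hyaluronidase Hyal2, by 0.38 on the log2 scale (SE 0.074, adjusted p = 0.0055). Of 34 lysosomal membrane proteins 4 rose and none fell, with a median of 0.035; without 6 h mouse 1, 2 rose. Mfsd8, a lysosomal membrane transporter, measured 21 to 25.5 CPM (median 24.5) in the morning and 36.2, 35.1 and 32.2 at 5 h and 31.8 and 36.4 at 6 h. Its groups did not overlap and it rose by 1.44-fold (0.53 ± 0.076 SE, adjusted p = 0.000947). Ostm1, the beta subunit of the lysosomal chloride exchanger, rose from 128 ± 6.8 CPM to 169 ± 3.41 (0.40 ± 0.046 SE, adjusted p = 0.000292). Slc17a5, the sialic acid exporter, rose (0.30 ± 0.071 SE, adjusted p = 0.016) but not without 6 h mouse 1 (adjusted p = 0.107). Slc17a5 stood at 0.18 without the 1 h libraries (adjusted p = 0.311). Of 18 subunits and partners of the proton pump V-ATPase 3 rose (1 without 6 h mouse 2) and none fell (median 0.10). Atp6ap2 rose by 0.26 ± 0.049 (adjusted p = 0.00471). Atp6v1e1 rose by 0.24 ± 0.058 (adjusted p = 0.016), but not without 6 h mouse 2 (adjusted p = 0.0668). In the list of MiT/TFE factors, Rag GTPases and mTORC1, 2 of 34 rose (Mitf and Sesn1) and 1 fell (Ddit4). Mfsd8, Ostm1 and Atp6ap2 remained past the threshold once 6 h mouse 3 was added as a 12th library, and Rtn3, Tax1bp1, Atp6v1e1, Slc17a5, Ctsh and Hyal2 did not.

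Endothelial markers of choroidal vessels were lower at midday, and some markers of connective tissue fell. All 15 endothelial markers tested had a negative difference and 9 fell, against 5.85% of all tested genes. The markers' median was -0.64, and no marker's groups were fully apart. Esam measured 17.1 to 29.7 CPM (median 27.2) in the 6 morning libraries, 17.7, 15.1 and 21.8 at 5 h and 11.7 and 11.6 at 6 h. Esam, an adhesion molecule of endothelial junctions, fell 1.74-fold (-0.80 ± 0.15 SE, adjusted p = 0.00684) with overlapping groups. Egfl7, a protein that endothelial cells secrete, fell from 60.4 ± 11 CPM to 36.6 ± 8.15 (-0.77 ± 0.15 SE, adjusted p = 0.0117). It did not pass without 6 h mouse 1 (adjusted p = 0.0692) or 6 h mouse 2 (0.0533). The number that fell was 1 without 6 h mouse 1 or 6 h mouse 2 and 14 without 5 h mouse 3, and with 6 h mouse 3 added it was 1. Of 14 fibroblast and mural cell markers 7 fell and none rose (median -0.36), against 5.85% and 4.98% of all tested genes. Myh11 measured 25.9 to 51.5 CPM (median 37) in the 6 morning libraries, 16.8, 13.3 and 21.7 at 5 h and 12.8 and 24.3 at 6 h. Myh11 (ENSMUSG00000018830, chromosome 16, 14194535 to 14291372), the myosin of smooth muscle, fell 2.06-fold (-1.04 ± 0.18 SE, adjusted p = 0.00813), and its groups did not overlap, as the naming rule required. Pdgfra, a receptor of fibroblasts, fell from 82.6 ± 9.28 CPM to 62.7 ± 3.83 (-0.41 ± 0.071 SE, adjusted p = 0.00286).

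Among matrix genes more fell than rose. Of 21 collagens and lysyl oxidases 12 fell and 3 rose (median -0.33), against 5.85% and 4.98% of all tested genes. In this list 7 fell without 6 h mouse 1, and 1 rose without 1 h mouse 2 or without 6 h mouse 1. Col4a1, a chain of vessel basement membranes, fell from 120.4 ± 11.3 CPM to 87.2 ± 7.57 (-0.48 ± 0.067 SE, adjusted p = 0.000898). Col6a2, a chain of microfibrils, fell from 74.9 ± 9.2 CPM to 56.5 ± 8.05 (-0.44 ± 0.082 SE, adjusted p = 0.00469). Col1a1, a chain of the main fibrillar collagen, fell from 290.1 ± 34.8 CPM to 218 ± 15.6 (-0.42 ± 0.077 SE, adjusted p = 0.00439). The 3 that rose were Col4a3, Col4a4 and Col8a1, and the first pair encodes chains of another type of basement membrane collagen network. Eln measured 53.7 to 82 CPM (median 58.8) in the 6 morning libraries, 45.9, 34.3 and 48.1 at 5 h and 28.3 and 28.3 at 6 h. Eln (ENSMUSG00000029675, chromosome 5, 134702593 to 134747323), elastin, was 1.79-fold lower (-0.84 ± 0.12 SE, adjusted p = 0.00288), and its groups did not overlap. Emilin3, an elastin-associated protein, fell by 0.99 ± 0.16 on the log2 scale (SE, adjusted p = 0.00221). Heyl, a Notch target of mural cells, fell by 0.84 ± 0.10 (adjusted p = 0.000395), and Snai1, a transcription factor of mesenchymal cells, fell by 0.78 ± 0.14 (adjusted p = 0.00484). With the endothelial marker level as a covariate no gene passed, these included, and Esam stood at 0.0029. That covariate is built from Esam and its list. Esam stood at -0.48 without the 6 h libraries (adjusted p = 0.199), Eln stood at -0.54 (adjusted p = 0.0965) and Col6a2 stood at -0.28 (adjusted p = 0.102). The collagen list's summed level was 5613 to 6730.0 CPM in the morning and 5871 to 6586 at midday. Myh11, Pdgfra, Col4a1, Col1a1, Eln, Emilin3, Heyl and Snai1 remained past the threshold once 6 h mouse 3 was added as a 12th library, and Esam, Egfl7 and Col6a2 did not. The plot of marker levels shows the endothelial list lower in 4 of the 5 midday libraries than in any morning library.

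**Figure D4:**
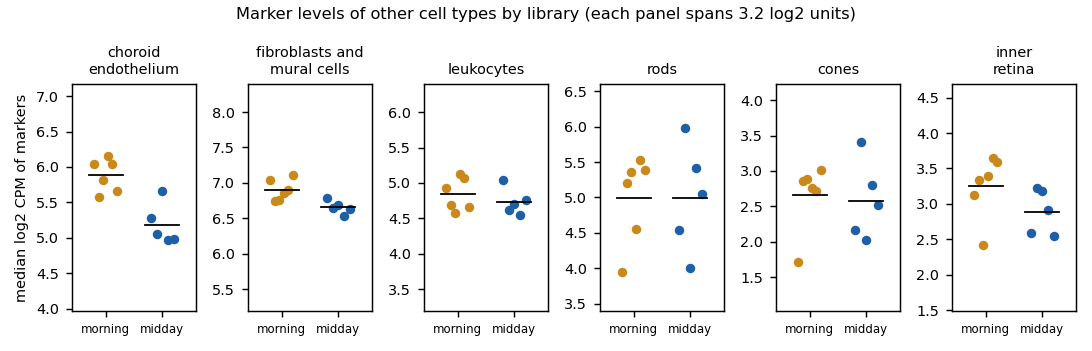
Median log2 CPM of 6 marker lists in each morning (1 h and 3 h) and midday (5 h and 6 h) library. Points are single mice. The endothelial list spans 5.576 to 6.149 in the morning and 4.971 to 5.661 at midday, and the rod list spans 3.947 to 5.522 and 4.005 to 5.976.

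Immediate early genes, which cells switch on within minutes of a stimulus, had negative differences: all 25 genes were below 0, with a median of -0.44. Among them 8 fell (Fos, Ier5, Ier2, Egr1, Jund, Klf2, Btg2 and Ier3), against 5.85% of all tested genes. Without 6 h mouse 1, 5 of the list fell. Ier5 measured 29.8 to 47.9 CPM (median 43) in the 6 morning libraries, 22.9, 22.5 and 26.9 at 5 h and 27.3 and 25.1 at 6 h. Ier5 fell 1.65-fold (-0.72 ± 0.11 SE, adjusted p = 0.00249), with groups that did not overlap. Ier2 fell from 17.8 ± 3.44 CPM to 11.4 ± 1.13 (-0.66 ± 0.11 SE, adjusted p = 0.00264). Egr1, a zinc finger factor induced by growth factors, fell from 29.2 ± 10.2 CPM to 18.2 ± 1.81 (-0.62 ± 0.12 SE, adjusted p = 0.00722); its morning was mixed, at 20.6, 25.1 and 19.1 CPM in the 1 h mice and 27.3, 38.8 and 44.5 in the 3 h mice. Egr1 stood at -0.24 without the 3 h libraries (adjusted p = 0.209), and it did not pass without the 5 h libraries (adjusted p = 0.133) or with 2 groups and no time means (0.0823). Ier5l, a paralog of Ier5, fell from 12.6 ± 2.5 CPM to 6.34 ± 1.47 (-1.0 ± 0.19 SE, adjusted p = 0.00632). Egr1 remained past the threshold once 6 h mouse 3 was added as a 12th library, and Ier5, Ier2 and Ier5l did not.

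Some genes differed between the pooled times themselves, so that midday was set against a mixed morning. Between 1 h and 3 h, 15 genes passed (0.0844%), 14 of them lower at 3 h (0.0788%) and 1 higher (0.00563%), against 348 between 3 h and 5 h. The 14 are Per1, Cish, Cdkn1a, Tsc22d3, Klf9, Abr, Arhgef3, Camsap3, Fzd8, Spry4, St6galnac2, Hr, C1rb and Gm28875; Tsc22d3 and Klf9, with Per1 and Cdkn1a, were on the list of glucocorticoid targets, and all 14 were named after their values were seen. Cish (ENSMUSG00000032578, chromosome 9, 107296026 to 107302784), an inhibitor that STAT5 induces, was 28.8, 27.6 and 30.5 CPM in the 1 h mice, 8.21, 8.51 and 10.1 in the 3 h mice, 19, 20.8 and 20.9 in the 5 h mice and 17.4 and 20.7 in the 6 h mice. The 1 h libraries were the highest and the 3 h libraries the lowest, a fall of 1.70 ± 0.11 on the log2 scale (SE, adjusted p = 3.5e-06). Midday lay between them. The pooled difference was 0.28 ± 0.084 (SE, adjusted p = 0.0403). It missed the threshold in 8 of the 11 fits with 1 library left out (adjusted p = 0.0506 to 0.174), all but those without 1 h mouse 3, 3 h mouse 3 or 6 h mouse 1. Without the 3 h libraries it turned to -0.56. F5, coagulation factor V, was the gene that was higher at 3 h, at 1.95, 3.94 and 2.9 CPM in the 1 h mice, 13.7, 9.79 and 14.9 in the 3 h mice, 1.96, 2.78 and 3.01 in the 5 h mice and 2.3 and 2.83 in the 6 h mice. Its pooled difference (-1.25 ± 0.20 SE, adjusted p = 0.00202) thus came with overlapping groups, the 1 h libraries being at the midday level.

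Of 15 glucocorticoid targets 3 rose (Sgk1, Per1 and Mt1) and 2 fell (Cdkn1a and Ddit4), against 4.98% and 5.85% of all tested genes. Sgk1, a kinase that regulates sodium transport, rose from 1135 ± 175 CPM to 1467 ± 102 (0.40 ± 0.053 SE, adjusted p = 0.000657); its morning was mixed, at 1240.1, 1238 and 1383 CPM in the 1 h mice and 984, 956 and 1008 in the 3 h mice. Sgk1 stood at 0.20 without the 3 h libraries (adjusted p = 0.0915). Cdkn1a, a cell cycle inhibitor, fell from 19.7 ± 5.53 CPM to 12.4 ± 1.33 (-0.62 ± 0.10 SE, adjusted p = 0.00177); its morning was mixed, at 23.8, 26.6 and 23.4 CPM in the 1 h mice and 13.4, 16.6 and 14.7 in the 3 h mice. Cdkn1a stood at -0.26 without the 1 h libraries (adjusted p = 0.292). Fkbp5, a co-chaperone and standard glucocorticoid target, read 26.2, 36.9 and 40.4 CPM in the 1 h mice, 13.5, 17.1 and 15.8 in the 3 h mice, 13.4, 17.3 and 19.5 in the 5 h mice and 26.2 and 42.7 in the 6 h mice. It did not pass (0.058 ± 0.16 SE, adjusted p = 0.867). Pim1, a kinase induced by STAT5, rose from 28.3 ± 1.8 CPM to 39.1 ± 4.03 (0.44 ± 0.069 SE, adjusted p = 0.00168), 1 of 2 members of the 10-gene STAT5 feedback list to rise, with Cish. Sgk1, Pim1 and F5 remained past the threshold once 6 h mouse 3 was added as a 12th library, and Cdkn1a and Cish did not. F5 stood at -0.19 without the 3 h libraries (adjusted p = 0.74).

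**Figure D5:**
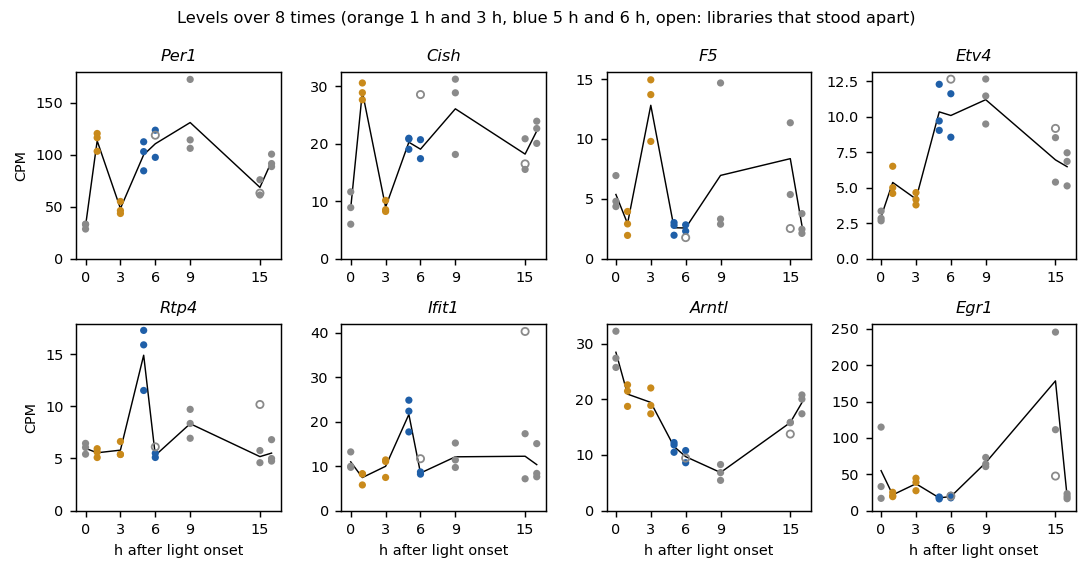
Expression in CPM of 8 genes in all 24 libraries against hours after light onset; points are single mice, open points are 6 h mouse 3 and 15 h mouse 3, and the line joins the time means without them. Per1 and Cish dip at 3 h, F5 peaks at 3 h among the 4 times compared, and Rtp4 is higher at 5 h than at 6 h.

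Of 28 interferon response genes 9 rose and none fell, against 4.98% and 5.85% of all tested genes. The list's median was 0.31, and without 6 h mouse 1, 5 of its members rose. Ifit1 measured 5.75 to 11.4 CPM (median 8.24) in the 6 morning libraries, 22.3, 24.8 and 17.7 at 5 h and 8.18 and 8.67 at 6 h. Ifit1 (ENSMUSG00000034459, chromosome 19, 34640871 to 34650009), which encodes a protein that binds viral RNA, rose by 1.57-fold (0.65 ± 0.14 SE, adjusted p = 0.00966); the rise lay at 5 h, and its groups overlapped. Ifi44 went from 2.11 ± 0.965 CPM to 4.66 ± 2.19 (0.90 ± 0.21 SE, adjusted p = 0.0148) and did not pass without 6 h mouse 1 (adjusted p = 0.0692). Irf7, the transcription factor that amplifies the response, was 7.02, 10.5 and 5.5 CPM in the 1 h mice, 7.88, 13.1 and 7.47 in the 3 h mice, 20.3, 17.1 and 17.3 in the 5 h mice and 5.88 and 6.1 in the 6 h mice. It did not pass (0.29 ± 0.19 SE, adjusted p = 0.366). Rtp4 (ENSMUSG00000033355, chromosome 16, 23520291 to 23614222), another interferon-induced gene, was 5.6, 5.09 and 5.93 CPM in the 1 h mice, 5.38, 6.62 and 5.38 in the 3 h mice, 17.3, 15.9 and 11.5 in the 5 h mice and 5.5 and 5.09 in the 6 h mice. It was the single gene that differed between 5 h and 6 h in edgeR (0.00563%), lower at 6 h by 1.49 ± 0.20 on the log2 scale (SE, adjusted p = 0.0459), in a contrast with 1039 genes at an unadjusted p under 0.05. DESeq2 called 44 genes there, and limma-voom called 0, with 955 at an unadjusted p under 0.05. Without the 6 h libraries 15 of the list rose, and without the 5 h libraries 1 rose and Rtp4, Ifit1 and Irf7 stood at -0.10, -0.025 and -0.51. Ifi44 stood at 0.18 without the 5 h libraries (adjusted p = 0.818), and at 0.47 without the 1 h libraries (0.334). Once 6 h mouse 3 was added, 5 of the 28 rose. The list's summed level was 506 to 592 CPM in the morning, 913, 936 and 769 in the 5 h mice and 534 and 571 in the 6 h mice, the last within the morning range.

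The interferon-stimulated response element GAAANNGAAA, searched on both strands of the same 250-base windows, was found in 10 of the 19 interferon response genes with an entry (52.6%) and in 4 of the 7 that rose (57.1%: Ifit1, Ifit3, Bst2 and Gbp3). It was in 3.21% of tested genes with an entry. The promoter of Ifit1, at chr19:34640639-34640888 (+ strand), is shown as the member with values above; capitals mark its 2 matches, which lie on the opposite strand and so read TTTCNNTTTC in the letters printed.
Ifit1: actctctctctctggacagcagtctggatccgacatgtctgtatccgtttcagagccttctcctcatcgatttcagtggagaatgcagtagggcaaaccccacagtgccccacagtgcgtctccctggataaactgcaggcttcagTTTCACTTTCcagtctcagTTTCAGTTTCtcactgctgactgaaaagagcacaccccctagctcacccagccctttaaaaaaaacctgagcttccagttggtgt

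Metabolic genes were read in 3 lists, against 4.98% of all tested genes that rose and 5.85% that fell. Of 25 genes of fatty acid oxidation and ketogenesis 4 rose (2 without 6 h mouse 1) and 1 fell. Plin2, a coat protein of lipid droplets, rose from 109 ± 11.7 CPM to 139.7 ± 9.49 (0.34 ± 0.067 SE, adjusted p = 0.00579). Of 31 cholesterol genes 2 rose and 1 fell, among them Sc5d, a late enzyme of synthesis (0.30 ± 0.055, adjusted p = 0.00409). Of 19 insulin and FOXO genes 5 rose and 1 fell. Irs2, the adaptor of the insulin receptor, rose from 185 ± 11.8 CPM to 261 ± 20.2 (0.51 ± 0.056 SE, adjusted p = 0.000176). Insr, the receptor, rose from 127 ± 6.61 CPM to 155 ± 5.9 (0.29 ± 0.05 SE, adjusted p = 0.00269). Igfbp5, which binds insulin-like growth factors, fell from 3556 ± 382 CPM to 2852 ± 354 (-0.35 ± 0.071 SE, adjusted p = 0.0062). Igfbp5 stood at -0.20 without the 6 h libraries (adjusted p = 0.214). Plin2 remained past the threshold once 6 h mouse 3 was added as a 12th library, and Sc5d, Irs2, Insr and Igfbp5 did not.

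The next lists are set against 4.98% of all tested genes that rose and 5.85% that fell. In iron handling, 4 of 14 genes rose and none fell. Trf encodes transferrin (0.34 ± 0.057, adjusted p = 0.00232) and Heph the ferroxidase of iron export (0.25 ± 0.051, adjusted p = 0.00671). Aco1, which as an iron regulatory protein binds messenger RNA, rose by 0.25 ± 0.048 (adjusted p = 0.00518), and its relative Ireb2 also rose. Annotated exons of Trf overlap those of Gm20425 over 63.5% of their bases. Of 21 heat shock genes 2 rose, the chaperones Hspa8 (0.33 ± 0.05, 0.0016) and Hsp90aa1 (0.28 ± 0.053, 0.0048), and 2 fell. Of 21 complement genes 2 rose, among them the regulator Clu (0.27 ± 0.065, 0.0168; not without 6 h mouse 2, adjusted p = 0.0692), and 2 fell. The cyclic AMP list held 2 rises and 3 falls (1 without 6 h mouse 1) among 23 genes. Pde4b, which degrades cyclic AMP, rose from 37.8 ± 2.52 CPM to 53.7 ± 6.68 (0.51 ± 0.082 SE, adjusted p = 0.00188). Adcy1, which makes it, fell from 128 ± 19.6 CPM to 97.4 ± 10.1 (-0.39 ± 0.066 SE, adjusted p = 0.00243); its morning was mixed, at 144, 138 and 152 CPM in the 1 h mice and 103, 111 and 119 in the 3 h mice. Adcy1 stood at -0.20 without the 1 h libraries (adjusted p = 0.203). Of 25 melanin and melanosome genes 1 rose and 2 fell, including Mlana (-0.31 ± 0.067, 0.00941; not without 6 h mouse 1, adjusted p = 0.072). Trf stood at 0.21 without the 6 h libraries (adjusted p = 0.105). Trf and Hspa8 remained past the threshold once 6 h mouse 3 was added as a 12th library, and Heph, Aco1, Hsp90aa1, Clu, Pde4b, Adcy1 and Mlana did not. Of 26 unfolded protein response genes 3 rose and 1 fell; the number that rose was 0 without 6 h mouse 2, 1 without 1 h mouse 2 or 5 h mouse 1 and 6 without 3 h mouse 3.

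Some ribosomal protein genes fell. Of 85 genes of cytosolic ribosomal proteins 26 fell and none rose (median -0.22), against 5.85% and 4.98% of all tested genes. Rps20 measured 167 to 223 CPM (median 212) in the 6 morning libraries, 165, 135 and 151 at 5 h and 127 and 156 at 6 h. Rps20, a protein of the small subunit, fell 1.4-fold (-0.49 ± 0.094 SE, adjusted p = 0.00753), with groups that did not overlap. Rps16 fell from 196 ± 21.5 CPM to 144 ± 14.6 (-0.44 ± 0.093 SE, adjusted p = 0.0111). Once 6 h mouse 3 was added none of the 85 passed in edgeR and their median was -0.0136. That library read 396 CPM for Rps20, above the other 11. The number that fell was 6 without 6 h mouse 1, 9 without 1 h mouse 1 or 5 h mouse 2, 11 without 3 h mouse 1, 12 without 3 h mouse 2, 14 without 1 h mouse 2, 17 without 5 h mouse 3 and 42 without 3 h mouse 3. The median was -0.00934 with the endothelial marker level as a covariate. Many ribosomal protein genes have processed copies elsewhere in the genome, so their counts are uncertain where reads fit both. The 25 mitochondria-encoded transcripts had a median difference of -0.0043. Of 86 nuclear genes of oxidative phosphorylation 1 rose and 3 fell, against 4.98% and 5.85% of all tested genes. With 1 library left out, 0 to 13 of the 86 fell, the most without 3 h mouse 3.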

How the data were processed

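Total RNA of mouse RPE was sequenced in 24 libraries, and 11 enter the comparison. Per the labels' protocols, RNA was taken up with the RNAqueous-Micro kit and libraries were made with the NEBNext Ultra kit, which does not mark strand. The deposited values are raw counts per gene made by the authors, and STAR, HTSeq and the mm10 build are listed in the submitters' processing notes with no roles or versions. Counting rules for reads that fit 2 genes or places are not given in the sources used here.

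Counts were used as deposited. Genes were kept with filterByExpr (minimum count 10), leaving 17763 of 54532 genes and 99.91% of counts, and tested in R 4.3.3 with edgeR 4.0.16 (TMM, robust quasi-likelihood test, 1 mean per time, Benjamini-Hochberg, adjusted p under 0.05). The contrast was the mean of the 5 h and 6 h coefficients minus that of 1 h and 3 h; 5 h against 3 h, 3 h against 1 h and 6 h against 5 h came from the same fit. CPM for display are TMM-scaled over 24 libraries, and time means leave out 6 h mouse 3 and 15 h mouse 3. No pair of the 11 libraries agreed within sampling noise (lowest chi-square per degree of freedom 6.08 over 55 pairs). The labels call the libraries separate mice. The scripts were checked on simulated counts.

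Named genes are, by rule, the 15 largest rises and 15 largest falls with no overlap and at least 5 CPM, every clock gene, in each other list the called members with the largest changes (at most 4) or the member with the lowest p, and 11 genes of the study's subject; the text gives a part of these 186. Some of them are not reported here. The members and lists were chosen with earlier results of these data known. Alternatives were RLE scaling, DESeq2 1.42.0, limma-voom (limma 3.58.1), no filter, other sets of libraries or times, a replicate block, and marker levels as covariates. Marker lists were compared by the median log2 CPM of their members. Positions and exon overlaps are from the GRCm38 annotation, and promoters from RefSeq.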

Additional observations from a re-analysis of the deposited data

Results flagged for a closer look

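The values searched were those of each gene named in the report, the library totals and some marker levels, each by morning or midday. In 12 of the 224 groups, all of them values of genes, 1 library stood farther from its nearest neighbour than the limit for a group of its size. That limit was a gap over range of 0.625 for 6 libraries and 0.71 for 5, and chance passes it in about 1 in 20 groups. Standing above the other morning libraries were Gabrr2, a GABA receptor subunit, at 7.29 CPM in 1 h mouse 3 against 5.54 in the nearest, then Ier2, an immediate early gene, at 24.7 CPM in 3 h mouse 2 against 17.5 in the nearest, then Rgr, an opsin of the RPE, at 11436 CPM in 1 h mouse 3 against 9918 in the nearest. Also above the other morning libraries were Col1a1, a fibrillar collagen, at 358 CPM in 1 h mouse 1 against 289 in the nearest, then Slc24a1, a rod ion exchanger, at 900.2 CPM in 1 h mouse 3 against 758 in the nearest. Standing below the other morning libraries were Itgav, an integrin subunit, at 603 CPM in 3 h mouse 1 against 706 in the nearest, then Hyal2, a hyaluronidase, at 24.3 CPM in 3 h mouse 3 against 28.9 in the nearest. Standing above the other midday libraries were Atp6ap2, a V-ATPase partner, at 340.3 CPM in 6 h mouse 2 against 303 in the nearest, then Mlana, a melanosome protein, at 269 CPM in 6 h mouse 2 against 228 in the nearest, then Bmp4, a BMP ligand, at 436 CPM in 5 h mouse 1 against 400.1 in the nearest. Standing below the other midday libraries were Per2, a clock repressor, at 76.1 CPM in 5 h mouse 1 against 85.7 in the nearest, then Ostm1, a lysosomal chloride exchanger subunit, at 163 CPM in 5 h mouse 3 against 169 in the nearest. 1 h mouse 3 gave 3 of the 12 values, 5 h mouse 1 and 6 h mouse 2 gave 2 each, and 5 other libraries gave 1 each.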

How the results depend on the processing

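Of the 107 genes named with a difference, 93 passed in the analysis reported and none of them passed in each of the 27 alternatives; RLE scaling, limma-voom and the rod marker covariate left each on its side of the threshold, DESeq2 moved 1 (Sqstm1), and Per1, Cish, Ifit1, Rtp4 and Esam were the called genes that changed sign in any. The genes called in the main comparison were 1938 with RLE, 2427 in DESeq2, 1717 in limma-voom, 2074 of 29995 without a filter, 1635 with 2 groups, 365 with 6 h mouse 3, 52 with all 24 libraries, 2034 with 22, 1942 with the rod covariate, 908, 1499, 663 and 624 without 1 h, 3 h, 5 h and 6 h, 819 to 2575 with 1 library left out, 0 in edgeR with the endothelial covariate (1610 at an unadjusted p under 0.05) and 6 with the fibroblast and mural covariate. Of the 93 called genes named, 44 lost their call with 6 h mouse 3, 79 with all 24 libraries, 93 and 90 with the endothelial and the mural covariate, and 17, 17, 29 and 29 without 1 h, 3 h, 5 h and 6 h. For 5 h against 3 h the count was 341 with RLE, 837 in DESeq2, 220 in limma-voom, 24 with 6 h mouse 3 and 481 with 22 libraries; for 3 h against 1 h it was 123, 9, 6 and 48 in DESeq2, in limma-voom, with 6 h mouse 3 and with 22 libraries; and for 6 h against 5 h it was 44 in DESeq2, 0 in limma-voom (955 at an unadjusted p under 0.05), 0 in edgeR with 6 h mouse 3 (1457) and 8 with 22 libraries. As a check on pairing by replicate number, 4 of 15 same-numbered pairs had deviations correlated above 0.1 (-0.308 to 0.355, against -0.374 to 0.311 for the 30 other pairs). Between 1 h and 3 h the same-numbered pairs gave 0.139, 0.355 and 0.246, and the others -0.374 to 0.188. Deviations were taken from each time's own mean, so those of the 6 h mice mirror each other by construction. The check therefore cannot decide whether the numbers mark pairs. With the replicate block 1886 genes passed, and 213, 12 and 11 for 5 h against 3 h, 3 h against 1 h and 6 h against 5 h; the named gene that lost its call was Slco1c1 (adjusted p = 0.0509). With 6 h mouse 3 added, Arntl2 stood at -0.165, Cry1 at -0.021, Optn at -0.00758 and Tfeb at 0.00916. With all 24 libraries, Arntl2 stood at -0.165, Cry1 at -0.0203, Optn at -0.00683 and Tfeb at 0.0108. Without 6 h, Arntl2 stood at -0.451, Bhlhe41 at -0.00157, Cry1 at -0.0205, Fkbp5 at -0.462 and Optn at -0.0114. Without 1 h, Bhlhe40 stood at 0.00982, Bhlhe41 at -0.0916, Nr1d1 at -0.0533 and Optn at -0.0303. Without 5 h, Bhlhe40 stood at 0.00353, Ifit1 at -0.0247, Irf7 at -0.51 and Rtp4 at -0.0953. Without 3 h, Cish stood at -0.563, Cry1 at -0.0164, Fkbp5 at -0.522 and Per1 at -0.11. With the endothelial covariate, Cry1 stood at -0.0322, Esam at 0.00285, Fkbp5 at -0.0431, Rorb at -0.045 and Tfeb at 0.0603. With 2 groups and no time means, Fkbp5 stood at -0.0664. With the fibroblast and mural covariate, Fkbp5 stood at -0.14. With 1 library left out, the genes whose sign turned ranged as follows: Arntl2 -0.215 to 0.254, Cry1 -0.0366 to 0.0766 and Fkbp5 -0.138 to 0.215. The cause of these changes was not tested. Small differences limit the comparison, as the median change among called genes was 1.22-fold for rises and 1.33-fold for falls and 5 against 6 libraries were compared.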

Other observations

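The other 4 times of the series, which enter no comparison here, place the midday levels in the day (mean CPM ± SD, n = 3, or n = 2 at 6 h and 15 h, with no test). Arntl averaged 28.5 ± 3.39 at 0 h, 6.85 ± 1.43 at 9 h, 15.8 ± 0.0519 at 15 h and 19.4 ± 1.78 at 16 h, so its lowest time mean was at 9 h, after midday, and its highest at 0 h. Per2 averaged 28.5 ± 5.04 at 0 h, 92.5 ± 9.26 at 9 h, 64.1 ± 2.17 at 15 h and 71.6 ± 10.4 at 16 h, against 82.6 ± 5.67 at 5 h and 87.1 ± 1.03 at 6 h, with its highest time mean at 9 h. Ciart averaged 6.62 ± 2.71 at 0 h, 34.3 ± 11.8 at 9 h, 5.08 ± 0.63 at 15 h and 5.74 ± 0.691 at 16 h, so its midday level was followed by a similar one at 9 h and a lower one in the dark. Kcnj13 had its highest time mean at 5 h and averaged 169.6 ± 27.4 at 0 h, 235 ± 30.9 at 9 h, 148 ± 14.6 at 15 h and 188 ± 29.6 at 16 h. Lrat averaged 1250.3 ± 137 at 0 h, 1788 ± 274 at 9 h, 1544 ± 75.2 at 15 h and 2035 ± 193 at 16 h, so its 16 h level was close to the 2094 ± 208 at 5 h. Etv4, the ETS factor, averaged 2.96 ± 0.356 at 0 h, 11.2 ± 1.6 at 9 h, 6.96 ± 2.22 at 15 h and 6.48 ± 1.21 at 16 h, against 10.3 ± 1.72 at 5 h. Rtp4 had its highest time mean at 5 h and averaged 5.97 ± 0.523 at 0 h, 8.33 ± 1.39 at 9 h, 5.17 ± 0.823 at 15 h and 5.51 ± 1.12 at 16 h.

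The library left out of the midday group, 6 h mouse 3, was unlike the 5 midday libraries for some of the genes described and like them for others. It read 59.2 CPM for Per2, 364 for Sema3c and 1427 for Lrat, between the morning and midday libraries or within the morning range, and 31.5 for Esam, above all 11. It read 9.44 CPM for Arntl, within the midday range, and 49.6 for Ciart, above all 11.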
